A study of Mus musculus with 4 samples.

Results

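Fibroblasts of the mouse thoracic aorta that carried Pi16 transcripts, a group labelled Pi16 progenitor-like adventitial fibroblasts and called Pi16 cells here, were described in 4 single-cell libraries. Members were chosen by their own raw counts of unique molecular identifiers (UMIs), each of which stands for 1 captured transcript. A cell had to hold at least 10 UMIs of Dcn and Lum together, at most 1 of Myh11 and fewer than 10 of Lyz2, C1qa and C1qb together, which defines the fibroblast gate. It also had to hold at least 2 UMIs of Pi16, fewer than 5 of Cthrc1, at most 2 of Saa3 and Mmp3 together and at most 2 of Prg4 and Crabp2 together, which are called the exclusion gates. The rule found 1733 Pi16 cells among 5040 fibroblast-gated cells and 38316 cells in all.

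The study asked what STING, an adaptor protein that senses cytosolic DNA through its partner cGAS and switches on interferon genes, does in the aorta. Each of 4 groups was 1 library, made from cells of 3 pooled mice after the fat around the vessel had been removed, the tissue digested and viable cells sorted with the dye DAPI. Wild-type mice (WT) and Sting-KO mice (KO, a whole-body knockout) received either saline with a normal diet, or angiotensin II (AngII), a hormone that constricts arteries, infused for 7 days together with a high fat diet for 5 weeks. In every comparison the infusion and the diet therefore cannot be told apart, and neither strain, sex nor age was given in the labels. Wherever 4 values are listed for the libraries, their order is WT with saline, WT with AngII, KO with saline, KO with AngII. The Pi16 cells numbered 651, 403, 309 and 370 in that order. With 1 library per group, differences between single libraries were given without a test.

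Pi16 encodes a secreted peptidase inhibitor and marks fibroblasts of the adventitia, the outer coat of arteries, and of similar fibrous sheaths in other organs. Such cells share surface proteins with mesenchymal progenitors, among them DPP4, CD34, CD55 and Ly6a (Sca-1). They are often placed at the root of a fibroblast hierarchy, upstream of matrix-producing states marked by Cthrc1 or Postn and of a Col15a1 state that lies closer to vessel walls.

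Total depth ranged from 60064038 to 94698727 UMIs per library, with 5888, 9938, 6071 and 9294 UMIs per cell at the median. Pi16 cells had medians of 3634, 7013, 4143 and 7979 UMIs, so the AngII cells were sampled more deeply, and a gate on raw counts is easier to reach there. Between 92 and 148 cell barcodes were shared by each pair of libraries, of which 1 was a Pi16 cell in both. Tmem173, which encodes STING, gave 5.84, 10.4, 10.3 and 10.7 CPM (UMIs of the gene per 1e6 UMIs of the summed Pi16 cells). The labels do not say which part of the gene the knockout allele lacks, so these counts did not check the genotype, which was taken as labelled.

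All 3 naming markers were detected in every library, though not in every cell. Clec3b was detected in 569 of 651, 258 of 403, 257 of 309 and 151 of 370 Pi16 cells. Dpt was detected in 614, 384, 272 and 347 of them. Pi16 itself (chromosome 17, 29317680 to 29330593, plus strand, GRCm38) reached 7346, 2225, 7746 and 1926 CPM in the Pi16 cells. Since Pi16 chose the cells, these levels are only a description. They were lower in both AngII libraries than in both saline libraries.

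Clec3b (chromosome 9, 123150946 to 123157432, plus strand), which encodes the plasminogen-binding protein tetranectin, stood at 2223, 804, 2602 and 435 CPM in Pi16 cells. In fibroblast-gated cells of the same libraries with 0 Pi16 UMIs it stood at 417, 177, 285 and 101 CPM. Dpt (chromosome 1, 164796644 to 164824266, plus strand), the collagen-binding protein dermatopontin, gave 1444, 1019, 1194 and 659 CPM against 692, 881, 479 and 482. Clec3b was thus several times higher in the Pi16 cells of each library, whereas the Dpt levels of the AngII libraries lay closer together. In the test between these classes described further on, Dpt did not pass (log2 fold change 0.71, adjusted p = 0.118 by edgeR), and passed where both classes met the exclusion gates (0.87, adjusted p = 0.00871).

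The edge of the rule was not sharp. At 2 Pi16 UMIs, just inside it, Clec3b stood at 731, 339, 697 and 177 CPM. At 1 UMI, just outside it and under the same exclusion gates, it stood at 632, 147, 365 and 95.1 CPM. Of the Pi16 cells, 70, 35, 42 and 34 held exactly 2 UMIs, and the median cell held 12, 9, 10 and 7. The Pi16 background was gauged in cells that should lack it, in which free RNA was not told apart from other sources. Smooth muscle cells were taken as those with at least 10 Myh11 UMIs and fewer than 10 of Dcn and Lum together. Of these, 1.01%, 1.34%, 1.42% and 1.19% held 2 or more Pi16 UMIs, at medians of 7462, 10746, 7867.5 and 8788.5 UMIs per cell. Phagocyte-gated cells had at least 10 UMIs of Lyz2, C1qa and C1qb together, under the same limit on Dcn and Lum. Their share was 2.81%, 2.27%, 6.02% and 2.32%, at medians of 4678, 7905, 5113 and 7589. The same share of all fibroblast-gated cells was 74.2%, 84.3%, 68.9% and 79.6%, at medians of 3601.5, 9064, 3878 and 11760 UMIs. A count of at least 2 Pi16 UMIs was thus far more frequent than in those cells, whose limit on Dcn and Lum left out cells rich in fibroblast RNA. This count was a property of most fibroblast-gated cells in all 4 libraries rather than of a small subset.

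Markers of other cell types were checked in the Pi16 cells as sums over each list. All 10 fibroblast markers were detected in each library. Phagocyte markers summed to between 21.8 and 43.0 CPM, with Ptprc and Adgre1 at 0 in both saline libraries. Lymphocyte markers reached at most 1.94 CPM and mesothelial markers at most 5.17 CPM. Other lists stood higher. Chondrocyte markers summed to 374, 426, 1079 and 299 CPM, pericyte markers to 226, 446, 258 and 335, and Schwann cell markers to between 66.5 and 106. Smooth muscle markers had the largest sums of the lists of other cell types, at 1651, 1467, 5709 and 2972 CPM, and like the chondrocyte markers they were highest in KO saline. The part of such RNA in the results from KO saline below was not tested.

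The share of fibroblast-gated cells that met the whole rule was lower with AngII in both genotypes. It was 64.3% in WT saline (651 of 1012 cells, 95% exact Clopper-Pearson interval 61.3% to 67.3%) and 24.1% in WT AngII (403 of 1672, 22.1% to 26.2%). In the knockout it was 61.2% with saline (309 of 505, 56.8% to 65.5%) and 19.99% with AngII (370 of 1851, 18.2% to 21.9%). These intervals cover counting error only. The saline libraries stood together, the AngII libraries stood together, and the intervals of the 2 sets did not overlap.

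The exclusion gates removed different shares of the cells with saline and with AngII. Of the fibroblast-gated cells with at least 2 Pi16 UMIs, the exclusion gates removed 100 of 751 in WT saline and 39 of 348 in KO saline. They removed 1007 of 1410 (71.4%) in WT AngII and 1103 of 1473 (74.9%) in KO AngII. The Cthrc1 gate alone took 3, 823, 0 and 930 cells. Cthrc1 encodes a secreted protein of activated, matrix-producing fibroblasts. Most Pi16-bearing fibroblasts of the AngII libraries thus also carried at least 5 Cthrc1 UMIs and were outside the rule. Among cells that passed the exclusion gates, those with 2 or more Pi16 UMIs made up 75.6%, 79.3%, 70.5% and 77.4%.

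Depth moved these shares too. With every fibroblast-gated cell thinned to 3000 UMIs, and shallower cells left out, the share that met the rule was 63.0%, 37.6%, 63.1% and 33.5%. The share with 2 or more Pi16 UMIs and no exclusion gate was then 70.8%, 66.4%, 68.2% and 50.2%. The fibroblast gate was applied before thinning and the other gates after it. Cells left out as too shallow numbered 352 of 1012, 0 of 1672, 172 of 505 and 0 of 1851. These shares are therefore not those of cells gated at equal depth throughout. The order of saline above AngII was the same for the rule after thinning, with a smaller gap. Without the exclusion gates it reappeared after thinning. The intervals overlapped in WT (67.1% to 74.2% against 64.1% to 68.7%) and did not in KO (62.9% to 73.1% against 47.9% to 52.5%).

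**Figure D1:**
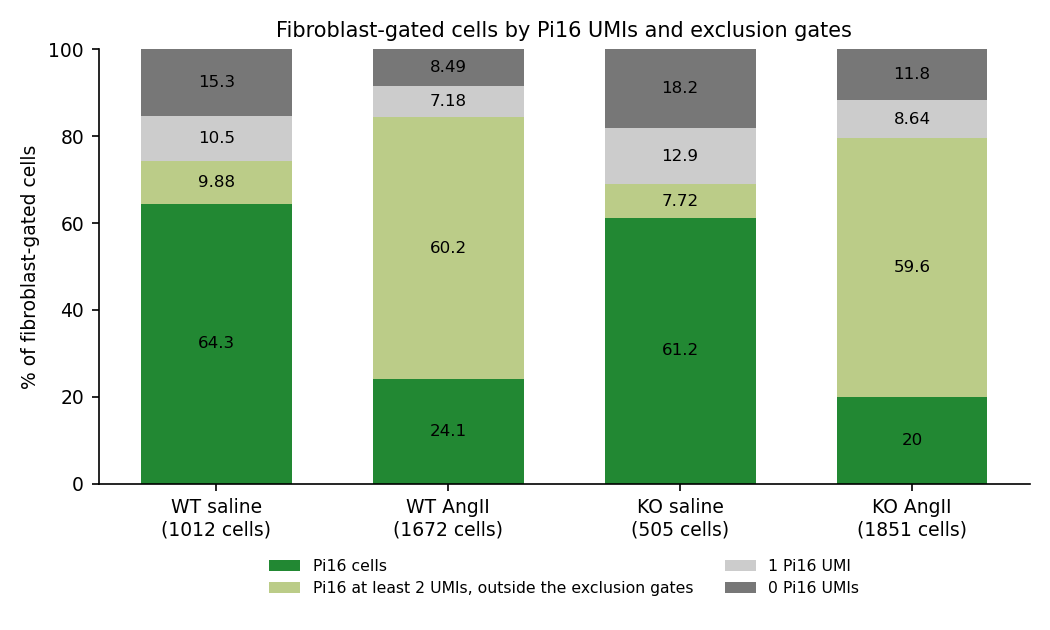
Stacked bars give the share of fibroblast-gated cells (percent) in each of the 4 libraries that were Pi16 cells, that held at least 2 Pi16 UMIs but failed an exclusion gate, or that held 1 or 0 Pi16 UMIs. Pi16 cells make up 64.3% and 61.2% of the saline bars and 24.1% and 19.99% of the AngII bars, while cells held out by the exclusion gates make up 9.88% and 7.72% against 60.2% and 59.6%.

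Within the Pi16 cells, genes of the progenitor program were higher in cells with more Pi16. Clec3b in cells with 25 or more Pi16 UMIs stood at 3343, 1834, 4198 and 1753 CPM, against the 731, 339, 697 and 177 CPM at 2 UMIs. In KO AngII the bins between showed no steady rise. Clec3b stood there at 259, 195 and 209 CPM with 3 to 4, 5 to 9 and 10 to 24 Pi16 UMIs. The higher level in that library lay in the 58 cells with 25 or more. Cd55, which shields cells from complement and is a surface marker of these progenitors, was set between cells with at least 10 Pi16 UMIs and cells with 2 to 9. It gave 201 against 45.2 CPM, 118 against 31.1, 318 against 58.8 and 151 against 30.01. In each library the cells with more Pi16 were the higher ones.

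The same split was applied to a list of 27 genes of progenitor fibroblasts. Cells with at least 10 Pi16 UMIs numbered 351, 201, 157 and 145, and those with 2 to 9 numbered 300, 202, 152 and 225. List genes with enough UMIs were at least 2-fold higher in the former in 23 of 26 cases in WT saline, 16 of 23 in WT AngII, 25 of 27 in KO saline and 16 of 23 in KO AngII, and no list gene was 2-fold lower. Over all genes with as many UMIs, 4.55%, 2.06%, 5.49% and 1.66% were at least 2-fold higher. Of the 22 genes measured in all 4 libraries, 12 were at least 2-fold higher in all 4. They included Sema3c (a secreted guidance cue), Wnt2 (a Wnt ligand), Cd248 (endosialin), Ackr3 (a scavenger receptor for Cxcl12) and Aldh1a3 (a retinoic acid-making enzyme). Mfap5 and Efemp1, which build microfibrils, and the eosinophil chemokine Ccl11 also passed 2-fold in all 4.

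Genes of the more committed state, a list with Cxcl12 and Col15a1, did not rise as a group. Of those measured, 2 of 18, 0 of 17, 0 of 17 and 1 of 17 were at least 2-fold higher in cells with at least 10 Pi16 UMIs. At least 2-fold lower were 8, 2, 8 and 2. Of 16 measured in all 4 libraries, 0 were 2-fold lower in all 4. Cxcl12, a chemokine that holds leukocytes and progenitors in place, stood at 272, 530, 841 and 228 CPM at 2 Pi16 UMIs and at 170, 154, 233 and 172 CPM at 25 or more. Col15a1 stood at 162, 571, 158 and 242 CPM at 2 UMIs and at 6.81, 289, 53.9 and 286 CPM at 25 or more. Cxcl12 was thus lower in the richest cells of each library, and Col15a1 was lower in 3 of 4, with KO AngII the exception. In KO saline all 9 measured smooth muscle markers were at least 2-fold lower in cells with 10 or more Pi16 UMIs. In WT saline, WT AngII and KO AngII 2, 0 and 0 of 9 were. Over all genes 5.96%, 2.1%, 5.29% and 2.19% were at least 2-fold lower. Cells with more Pi16 were also deeper, at medians of 4035 against 3092.5 UMIs, 7892 against 6175.5, 5774 against 3156 and 8221 against 7752. Pi16 chose and binned these cells, so the gradient is a description with no test.

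**Figure D2:**
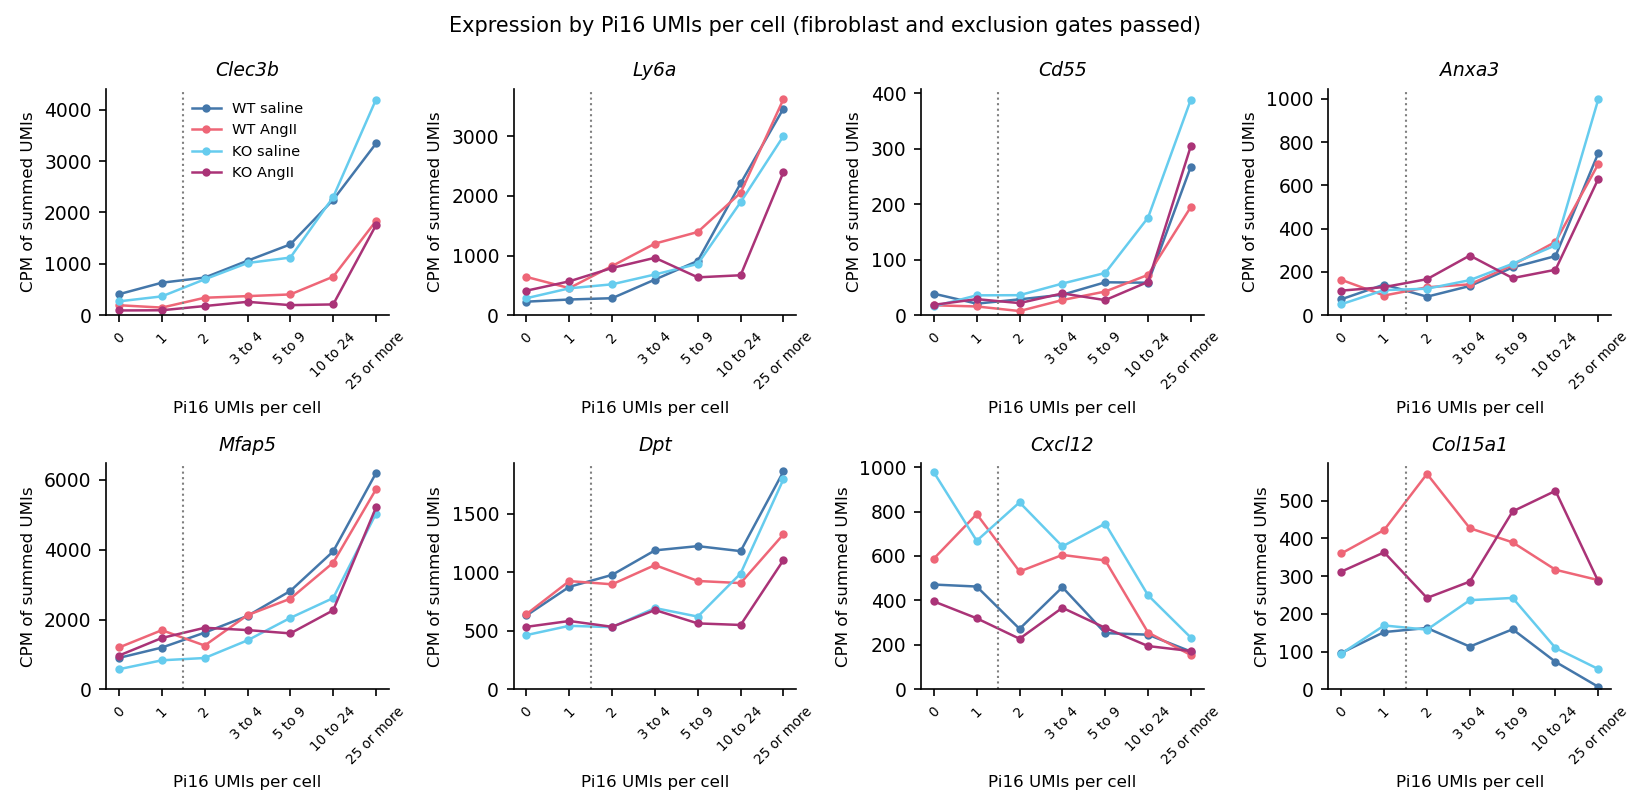
Each panel plots 1 gene in CPM of the summed cells against the number of Pi16 UMIs per cell, in bins from 0 to 25 or more, with 1 line per library and a dotted line at the 2-UMI edge of the rule. Clec3b stands between 1753 and 4198 CPM in the last bin, and in KO AngII at 259 CPM or less in all earlier bins. Cxcl12 ends between 154 and 233 CPM.

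Pi16 cells were then tested against the fibroblast-gated cells with 0 Pi16 UMIs of the same library (155, 142, 92 and 218 cells). Counts were summed per library and class and fitted with edgeR's quasi-likelihood test, with the library as a block, so that a difference was set against its spread over the 4 libraries. Of 9522 genes, 113 (1.19%) were higher and 82 (0.861%) were lower in Pi16 cells at a Benjamini-Hochberg adjusted p under 0.05. All 113 higher genes and 80 of the 82 lower genes had the same direction in all 4 libraries. The 12 genes of the rule were left out of the test.

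The comparison cells had not passed the exclusion gates, so genes that go with Cthrc1, Saa3, Mmp3, Prg4 or Crabp2 could be lower in Pi16 cells through the rule alone. The fit was therefore repeated against the 125, 61, 73 and 64 cells with 0 Pi16 UMIs that did pass them. It called 196 of 7902 genes higher (2.48%) and 204 lower (2.58%). The fits shared 93 higher and 41 lower genes, and called no gene in opposite directions. Genes named below as higher or lower were called in both, unless said otherwise.

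Of 13 surface antigens tested, 3 were higher in Pi16 cells in the main fit and 0 were lower, with a median log2 fold change of 0.26. With the same exclusion gates Thy1 was also higher and Pdgfrb was lower. Ly6a, the stem cell antigen Sca-1, stood at 2076, 2001, 1918 and 974 CPM against 258, 589.7, 309 and 540.5, a log2 fold change of 1.998 (adjusted p = 0.016). Cd34, a sialomucin, stood at 735, 434, 842 and 299 CPM against 223, 192, 299.7 and 90.5, a log2 fold change of 1.49 (adjusted p = 0.00128). For both genes the Pi16 cells were the higher class in each library, although the KO AngII Pi16 cells held less Ly6a than the other 3. Entpd2, an enzyme that breaks down extracellular ATP, was also higher, by 1.41. No other member of the 13 tested surface antigens passed the main fit, and Pdgfra, the growth factor receptor found on most fibroblasts, differed by 0.31 (adjusted p = 0.332).

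Of the 27 progenitor genes tested, 17 were higher in Pi16 cells and none was lower, with a median log2 fold change of 1.65. The median over all genes tested was -0.01. With the same exclusion gates on both sides, 21 of 23 were higher, with a median of 1.75. The list was compiled with such cells in mind and with earlier results of these data known. Its direction here, along the Pi16 gradient above and in the comparisons below is therefore not independent evidence.

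Clec3b was higher by 2.42 (adjusted p = 0.000741). Ly6c1, a surface antigen whose reads may be shared with its near copy Ly6c2, was higher by 2.54 (adjusted p = 0.00452). It stood at 963, 731, 946 and 424 CPM against 86.9, 179, 84.6 and 129. Smpd3, a neutral sphingomyelinase, stood at 63.0, 70.2, 85.4 and 32.4 CPM against 15.8, 10.2, 14.5 and 2.43, a log2 fold change of 2.71 (adjusted p = 0.00128). For each of these genes the Pi16 cells were the higher class in all 4 libraries. Dpp4, a peptidase used to sort such progenitors, was sparse, at 32.7, 7.63, 34.9 and 3.97 CPM against 0, 4.08, 7.25 and 1.62, and did not pass (log2 fold change 2.06, adjusted p = 0.105).

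Outside the lists, the largest fold changes among genes called in both fits were those of Cadm3, a homophilic adhesion molecule, and Pla1a, a phospholipase that acts on phosphatidylserine. Cadm3 stood at 65.8, 17.7, 102 and 17.7 CPM against 7.90, 0.679, 2.42 and 4.06 (log2 fold change 3.16, adjusted p = 0.00381). Pla1a stood at 81.3, 24.7, 89.2 and 22.9 CPM against 1.58, 10.9, 2.42 and 1.62 (3.01, adjusted p = 0.0182). The counts behind the comparison cells were small, with 1 to 10 UMIs of Cadm3 and 1 to 16 of Pla1a per library. Adhesion receptor Adgrd1 (2.20), hexosamine enzyme Gfpt2 (2.12), Aldh1a3 (2.05), Arhgap20 (2.27), sialic acid hydroxylase Cmah (2.15), Lrrn4cl (2.10) and Efhd1, a mitochondrial calcium sensor (2.02), made up the rest of the 12 named. With the same exclusion gates Aldh1a3 and Efhd1 were not higher in the Pi16 cells of WT AngII (log2 ratios -0.13 and -0.02). Efhd1 was also abundant in Myh11-gated smooth muscle cells, at 281 to 327 CPM, so it did not mark Pi16 cells beyond the fibroblasts.

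Matrix genes divided. Efemp1 (fibulin-3) was higher in Pi16 cells, at 148, 68.4, 177 and 33.0 CPM against 31.6, 20.4, 62.8 and 14.2, with a log2 fold change of 1.62 (adjusted p = 0.00346). Fbn1, the core protein of microfibrils, was higher by 0.93 (adjusted p = 0.0245). These were 2 of 16 elastic fibre genes tested, and no member was lower in the main fit. With the same exclusion gates 5 of 16 were higher and Ltbp1 was lower. Igfbp5, which binds insulin-like growth factors in the matrix, was higher by 1.91 (adjusted p = 0.00234), at 1843, 1321, 2275 and 753 CPM against 466, 363, 947 and 116. The hyaluronan synthase Has1 was higher by 1.81 (adjusted p = 0.0361), as were the complement genes C3 (1.06) and Serping1 (0.82) among 9 tested.

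A few fibrosis genes were lower. Of 20 collagen and fibrosis genes, 4 were lower and none was higher, with a median of -0.34. With the same exclusion gates the same 4 were lower, Col14a1 was higher and the median was -0.06. In the main fit the fibril collagens Col1a1, Col1a2 and Col3a1 did not pass (log2 fold changes -0.68, -0.30 and -0.13). Postn (periostin), a matrix protein of activated fibroblasts, stood at 71.6, 424, 114 and 307 CPM in Pi16 cells against 152, 2109, 261 and 1543, a log2 fold change of -1.83 (adjusted p = 0.00729). Thbs1 (thrombospondin-1), which activates latent TGF-beta, stood at 19.5, 97.4, 45.9 and 562 CPM against 152, 1008, 196 and 1090 (-2.35, adjusted p = 0.0107). Both were lower in the Pi16 cells of each library, and both were higher with AngII than with saline in either class. Spp1 (osteopontin) was lower (-2.98, adjusted p = 0.0203), though not in KO saline, where it stood at 5.17 against 4.83 CPM. Postn and Thbs1 stayed lower under the same exclusion gates, by -1.22 and -1.83. In KO AngII, however, the classes were then nearly level for Thbs1, at 562 against 572 CPM (log2 ratio -0.02).

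Several other lower genes belong to cell types next to the adventitia. Acta2, the smooth muscle actin, stood at 703, 565, 2538 and 1198 CPM against 1264, 1268, 3406 and 1618 (-0.75, adjusted p = 0.0345). Of 10 smooth muscle markers 4 were lower, and under the same exclusion gates 9 of 9 were. Tcap, Itih4, Emb, Scx and Postn, all among the 12 named, were also found in Myh11-gated cells, Tcap at 73.0 to 298 CPM. The comparison cells held summed smooth muscle markers at 3439, 3034, 8066 and 3724 CPM against the 1651, 1467, 5709 and 2972 of Pi16 cells, and their part in these calls was not tested.

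Chad, a cartilage matrix protein, had the largest difference (-5.90, adjusted p = 0.000233), but its UMIs lay in 2 to 4 comparison cells per library. In KO saline 91 of 92 UMIs were in 1 cell. Chondrocyte markers of the comparison cells summed to 2543, 664, 2864 and 455 CPM. Of these UMIs 88.3%, 57.8%, 96.6% and 36.5% lay in 10 cells. The growth factor Ptn (-2.69), the Wnt amplifier Rspo3 (-2.53), Igfbp3 (-2.59), Marcksl1 (-1.96) and Tmem176a (-1.79) were the other lower genes named. With the same exclusion gates Ptn and Igfbp3 differed little in WT AngII (log2 ratios -0.15 and -0.37). Rspo3 stood at 6.23, 2.14, 3.23 and 7.63 CPM against 26.9, 34.0, 33.8 and 20.7. Cxcl12 was lower as well, by -0.93 (adjusted p = 0.00729), at 247, 381, 457 and 254 CPM against 488, 579, 1047 and 435. In each library its level was thus below that of the cells without Pi16. Of 18 committed-state genes tested, the main fit called only Cxcl12 lower and only Angptl7 higher. With the same exclusion gates Penk, Fmo2 and Gdf10 were also lower and Smoc2 also higher.

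Several groups had no gene called, or 1, in the main fit. None of 14 cytokines and chemokines, 17 BMP and TGF-beta genes, 10 MHC class I genes, 8 heat shock chaperones, 15 endoplasmic reticulum chaperones or 13 cell cycle genes was called. Over all 9522 genes the fit called 1.19% higher and 0.861% lower, so no call in lists this short lies close to that share. With the same exclusion gates some members were called. Ccl11 and Il33 were higher and Ccl19 lower among 11 cytokines, Fstl1 was higher and Tgfb1 lower among 16 BMP and TGF-beta genes, and Dnajb1 and Sdf2l1 were each the 1 higher chaperone of their list. Of 20 interferon-stimulated genes tested, only Ifi27l2a was called, at 876, 1290, 477 and 189 CPM against 279.7, 327, 276 and 77.9 (1.41, adjusted p = 0.00723). With libraries left out in turn, the number of genes called was 84 without KO saline, 91 without WT AngII, 134 without WT saline and 277 without KO AngII, of which 76, 82, 113 and 157 were among the 195. Of the 24 named genes, 12, 6, 8 and 0 lost their call in those fits.

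**Figure D3:**
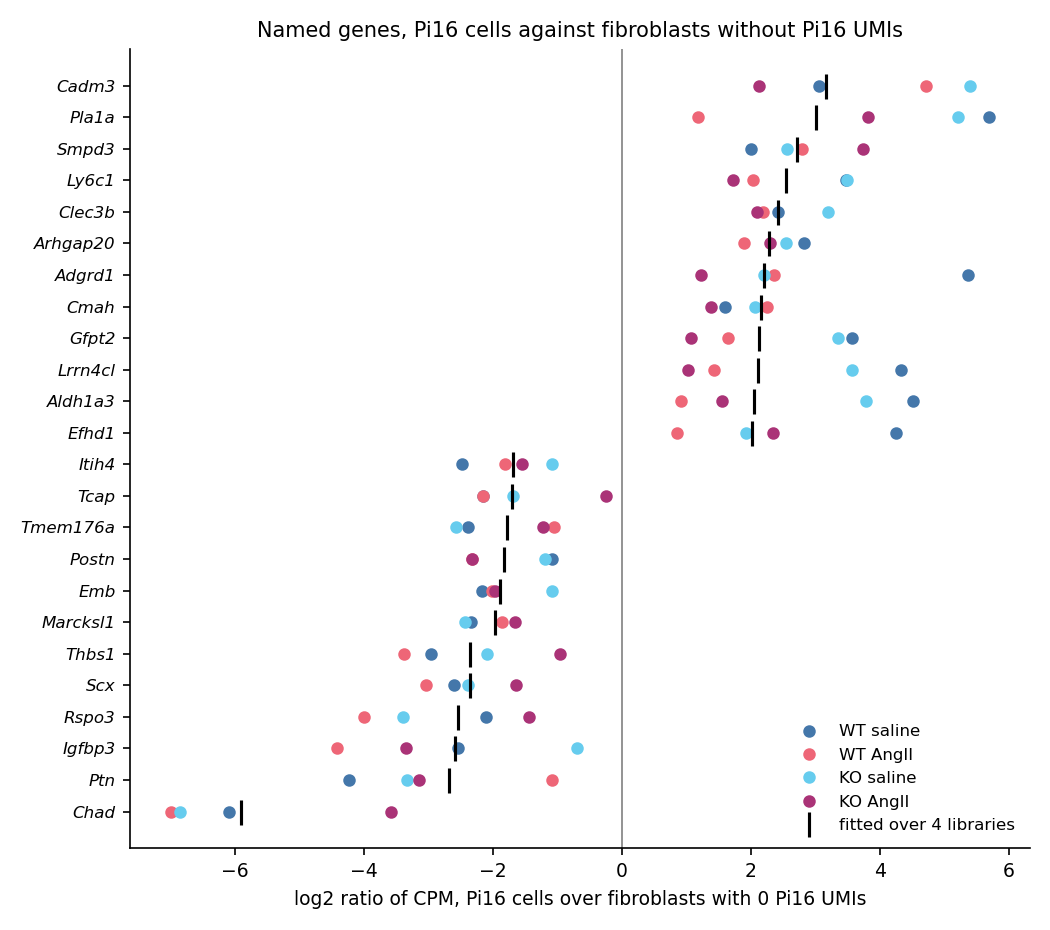
Points give the log2 ratio of CPM in Pi16 cells over fibroblasts with 0 Pi16 UMIs for the 24 named genes in each of the 4 libraries, with a class at 0 UMIs set to the floor of 3 UMIs, and bars give the edgeR fit. Fitted values run from 3.16 (Cadm3) to -5.90 (Chad), and the 4 points of a gene lie on the same side of 0.

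The distance between the classes itself differed with AngII for some genes. An interaction term was tested with 2 libraries per treatment, 1 of each genotype. The genotypes stood in for replicates, with 2 residual degrees of freedom. The term was called for 184 genes with a ratio higher with AngII (1.93%) and for 115 with a ratio lower (1.21%). With the same exclusion gates on both sides it was called for 50 (0.633%) and 28 (0.354%), and 67 genes were called in both. Mfap5, a microfibril protein and fibroblast marker, stood at 4175 against 951 CPM in WT saline and 3219 against 529 in KO saline, but at 3410 against 2057 and 2320 against 1639 in the AngII libraries. The interaction was -1.83 (adjusted p = 8.25e-05). With AngII the comparison cells held more Mfap5 and the Pi16 cells held less than with saline in both genotypes.

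Of the 27 progenitor genes 14 had an interaction below 0 that was called in the main fit and none had one above 0, with a median of -1.38 against 0.01 over all genes. Only 4 of the 27 were called in both fits, namely Ly6c1 (-1.70), Anxa3, a phospholipid-binding annexin (-1.81), Gfpt2 (-2.29) and Uchl1 (-1.34). Others did not pass with the same exclusion gates, among them Ackr3 (-1.08), Cd248 (-1.17) and Emilin2 (0.27). The surface antigen Ly6a (-1.61) was called in both. Anxa3 stood at 418 against 77.4 CPM and 553 against 50.8 with saline, and at 342 against 163 and 267 against 117 with AngII. The matrix genes Fn1 (fibronectin, -1.63), Col12a1 (-3.03) and Aspn (asporin, -2.79) were higher in Pi16 cells in both saline libraries and higher in the comparison cells in both AngII libraries. With the same exclusion gates the interactions were smaller, at -1.11, -1.58 and -1.07, and the direction with AngII no longer held in both libraries for any of the 3. Pi16 cells were then slightly higher for Col12a1 in both (log2 ratios 0.18 and 0.19), for Aspn in WT AngII (0.06) and for Fn1 in KO AngII (0.05).

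Other genes moved towards the Pi16 cells. Igf1, a growth factor, stood at 328 against 345 CPM and 354 against 338 with saline, and at 1179 against 564 and 1356 against 624 with AngII (interaction 1.01, adjusted p = 0.00535). The classes were alike with saline and the Pi16 cells were higher with AngII in both genotypes. Eng (endoglin, a TGF-beta co-receptor that endothelial cells also carry) stood at 68.1 against 243 and 82.8 against 237 with saline, and at 124 against 89.0 and 102 against 68.2 with AngII (2.13, adjusted p = 1.13e-05). Endothelial markers in the comparison cells summed to 585 and 483 CPM with saline and to 39.4 and 19.1 with AngII, so the comparison cells differed in endothelial RNA too, whose part was not tested.

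Between libraries, the Pi16 cells of AngII and saline aortas differed in matrix, chaperone and progenitor genes. A gene was compared when the library in which its CPM was higher held 30 or more of its UMIs. The Pi16 cells of the AngII libraries held more UMIs in all, 3275632 against 2569838 in WT and 3275520 against 1546244 in KO. Genes higher with AngII therefore met this limit more easily than genes higher with saline, also in the counts by list below. Intervals of log2 ratios are 95% exact conditional intervals and cover counting error only. In WT, 555 of 8093 genes (6.86%) had at least 2-fold more CPM with AngII and 533 (6.59%) had at least 2-fold less. In the knockout, 611 of 7055 (8.66%) were higher and 514 (7.29%) lower. With TMM scaling the knockout split was 760 higher and 396 lower, since the median of all genes moved from 0.02 to 0.13. Of the 6764 genes eligible in both genotypes, 241 were 2-fold higher in both, which is 49.6% of those in WT and 50.6% of those in KO. Another 171 were lower in both (57.8% and 34.5%), and 11 went opposite ways. The genotypes share no library in this overlap.

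Collagen and fibrosis genes were higher with AngII in Pi16 cells even though the rule kept out cells rich in Cthrc1. Of 20, 15 were at least 2-fold higher in WT (median log2 ratio 1.82) and 14 in KO (2.22). The medians of all eligible genes were -0.01 and 0.02. Col3a1 stood at 2760, 10581, 1762 and 9784 CPM. Timp1, an inhibitor of matrix proteases, stood at 119, 864, 178 and 1511 CPM. Elastin (Eln) stood at 1239, 6484, 935 and 6597. In each case both AngII libraries were above both saline libraries. Lox, which crosslinks collagen and elastin, stood at 184, 491, 85.4 and 863 CPM. Among fibrosis genes Fn1 was less than 2-fold apart in both genotypes (0.54 and 0.10), as was Col12a1 (-0.08 and 0.93).

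Progenitor genes were lower. The list median was -0.77 in WT (1 of 26 at least 2-fold higher, 10 lower) and -1.34 in KO (0 higher, 23 of 27 lower). Cd55 stood at 137, 78.8, 221 and 77.2 CPM, and Ackr3 at 386, 307, 495 and 174. Procr, the endothelial protein C receptor that also marks mesenchymal progenitors, stood at 286, 30.8, 82.1 and 32.4 CPM. Wnt2 went apart by genotype, at 30.4 and 62.3 CPM in WT but 73.7 and 31.8 in KO. Clec3b was lower with AngII by -1.47 (-1.54 to -1.40) in WT and by -2.58 (-2.67 to -2.49) in KO. Pi16 itself was lower in these cells, and along the Pi16 gradient less Pi16 went with less of this list, so the 2 patterns are not independent.

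**Figure D4:**
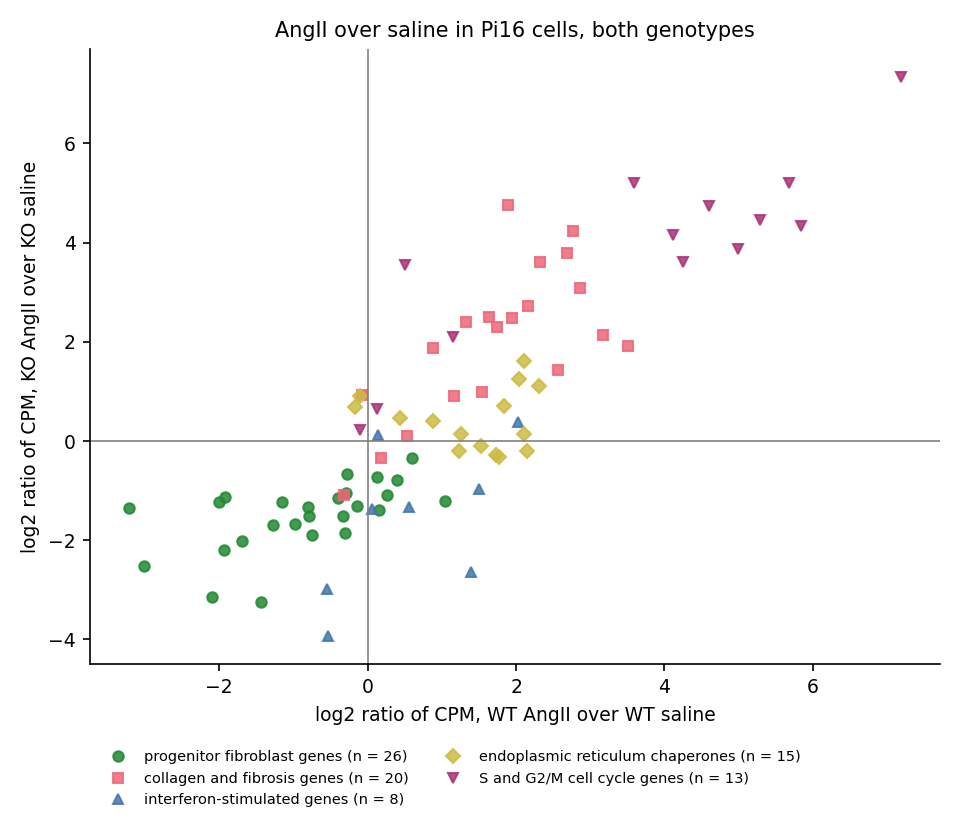
Each point is a gene of 1 of 5 lists, placed by its log2 ratio of AngII over saline in WT Pi16 cells (x axis) and in KO Pi16 cells (y axis), with genes at 0 UMIs in 1 library drawn at their bound. Collagen and fibrosis genes lie mostly above 0 on both axes (medians 1.82 and 2.22), progenitor genes below (-0.77 and -1.34), and 6 of the 8 interferon-stimulated genes below 0 on the KO axis.

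Inflammatory chemokines were higher with AngII in both genotypes. Ccl7, which attracts monocytes, stood at 55.3, 603, 103 and 1192 CPM, and Cxcl1, which attracts neutrophils, at 92.6, 694, 127 and 1203. The eosinophil chemokine Ccl11 was lower, at 205, 25.9, 184 and 30.8 CPM. Of the cytokines with enough UMIs in the higher library, 7 of 12 were at least 2-fold higher in WT and 10 of 16 in KO. In each genotype 1 was lower, which was Ccl11. Over all genes compared 6.86% and 8.66% were higher. Vcam1, an adhesion molecule for leukocytes, stood at 57.2, 316, 122 and 553 CPM, higher in both AngII libraries. Igf1 and Tnfrsf11b (osteoprotegerin, a decoy receptor that blocks RANKL) were higher too, the latter at 20.2, 443, 62.1 and 394 CPM.

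Retinoid and detoxifying enzymes were lower with AngII, 11 of 14 at least 2-fold in WT (median -1.55) and 6 of 11 in KO (-1.09), and none was 2-fold higher. Gstm1, a glutathione transferase, stood at 1356, 268, 1076 and 168 CPM. Aldh1a1, a retinaldehyde dehydrogenase, stood at 311, 69.6, 80.2 and 44.6, so its KO saline level was already near those with AngII. Inmt, a methyltransferase, stood at 454, 7.63, 136 and 7.63 CPM, a log2 ratio of -5.89 (-6.53 to -5.33) in WT and -4.15 (-4.81 to -3.55) in KO. Angptl7, an angiopoietin-like secreted protein, stood at 1308, 52.2, 156 and 22.6 CPM and was lower by -4.65 (-4.88 to -4.43) in WT and by -2.79 (-3.18 to -2.40) in KO. For both genes WT saline stood above the other 3 libraries.

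Chaperones of the endoplasmic reticulum, which fold secreted proteins, were higher with AngII in WT. There 11 of 15 were at least 2-fold higher (median 1.73), against 3 of 15 in KO (0.40), and the difference between genotypes was not tested. Hspa5 (BiP) stood at 202, 832, 349 and 826 CPM and Calr (calreticulin) at 222, 954, 762 and 846. The AngII libraries had similar levels, while KO saline stood above WT saline. In the comparison of the saline libraries themselves 7 of 14 chaperones were at least 2-fold higher in KO. These comparisons share libraries, so they are the same values seen from another side.

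Cell cycle transcripts were found in a minority of Pi16 cells with AngII. Cells with at least 5 UMIs over the S and G2/M list numbered 0 of 651 in WT saline, which allows a share of up to 0.461% as 3 cells of the total, or 0.565% by the exact interval used for the other shares, and 1 of 309 in KO saline. They numbered 23 of 403 in WT AngII (5.71%, 3.65% to 8.44%) and 54 of 370 in KO AngII (14.6%, 11.2% to 18.6%). With every cell thinned to 3000 UMIs the shares were 3.72% and 10.0% with AngII, and 0 of 436 and 0 of 224 cells with saline. The cells with AngII, chosen by the rule before thinning, thus stood above those with saline after it, and KO AngII had the higher share of the pair.

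The counts behind single genes were few with saline. Ube2c, a ubiquitin enzyme of mitosis, gave 1, 186, 1 and 342 UMIs, and in WT AngII 74.7% of them came from 5 of the 21 cells with any. Cdk1, the mitotic kinase, gave 0, 93, 0 and 170 UMIs, at least 24.3-fold higher in WT and at least 26.8-fold higher in KO against a floor of 3 UMIs per library. Cyclin gene Ccnb2 gave 122 UMIs against 0 in WT, at least 31.9-fold higher. In KO the mitotic genes Spc25 (134 against 0 UMIs) and Pbk (131 against 0) were at least 21.1-fold and 20.6-fold higher. The fibril collagen Col11a1 gave 188 against 0, at least 29.6-fold higher. In comparison cells with 0 Pi16 UMIs the share of cycling cells by the same count was 7.04% in WT AngII and 17.4% in KO AngII, and no cell cycle gene was called between the classes by edgeR.

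Genotype was set apart within each treatment. With AngII, 201 of 8180 genes (2.46%) were at least 2-fold higher in KO than in WT Pi16 cells and 222 (2.71%) lower. Of the interferon-stimulated genes, 16 of 19 were at least 2-fold lower and none was higher, with a median log2 ratio of -2.77, against a median of 0.00 over all eligible genes. Isg15, a ubiquitin-like protein induced by interferon, stood at 38.1, 99.8, 38.2 and 6.11 CPM. Irf7, the transcription factor that amplifies interferon production, stood at 30.4, 59.5, 16.8 and 2.14 CPM. Bst2 (tetherin) stood at 149, 419, 129 and 66.2. In each of the 3 the KO AngII cells were the lowest and the WT AngII cells the highest.

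With AngII against saline, 4 of 19 interferon-stimulated genes were at least 2-fold higher in WT and none was lower (median 0.23). In KO 5 of the 8 with enough UMIs were at least 2-fold lower and none was higher (-1.36). Ifit1, an RNA-binding antiviral protein, did not follow Isg15 in WT, at 67.7 CPM with saline and 46.7 with AngII, and stood at 27.8 and 1.83 in KO. Its ratio of KO over WT with AngII was -4.67 (-6.14 to -3.52), or -3.42 without the exclusion gates, and that of Irf7 was -4.80 (-6.13 to -3.73). The interferon-inducible GTPase Iigp1 gave 85 UMIs in WT AngII and 3 in KO AngII (-4.82, -7.13 to -3.23). Ifit3 and Ifit3b, near copies of each other that may share reads, stood at -3.91 and -4.03. Cxcl10 was apart from the group, at 5.45, 22.3, 23.3 and 30.5 CPM, with KO AngII not below WT AngII.

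Counted by cell, at least 5 UMIs of the interferon list were held by 62.8% of Pi16 cells in WT AngII (253 cells) and by 20.5% in KO AngII (76 cells). The shares were 31.6% in WT saline and 24.9% in KO saline. After thinning to 3000 UMIs they were 31.2%, 41.2%, 13.8% and 6.76%, with 215, 0, 85 and 0 shallower cells left out. After thinning both KO libraries stood below both WT libraries.

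Fibroblasts without Pi16 UMIs had the same lowest and highest library. Isg15 stood there at 37.9, 154, 16.9 and 6.09 CPM and Irf7 at 19.0, 59.1, 16.9 and 2.84, with KO AngII lowest and WT AngII highest for both. Genes of MHC class I presentation, which show peptides to T cells, were lower in KO AngII as well, with 8 of 10 at least 2-fold lower than in WT AngII (median -1.36). B2m, the light chain of MHC class I, stood at 1810, 2348, 1484 and 858 CPM and the heavy chain gene H2-D1 at 691, 898, 723 and 345. The saline libraries lay between the AngII libraries for both genes.

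**Figure D5:**
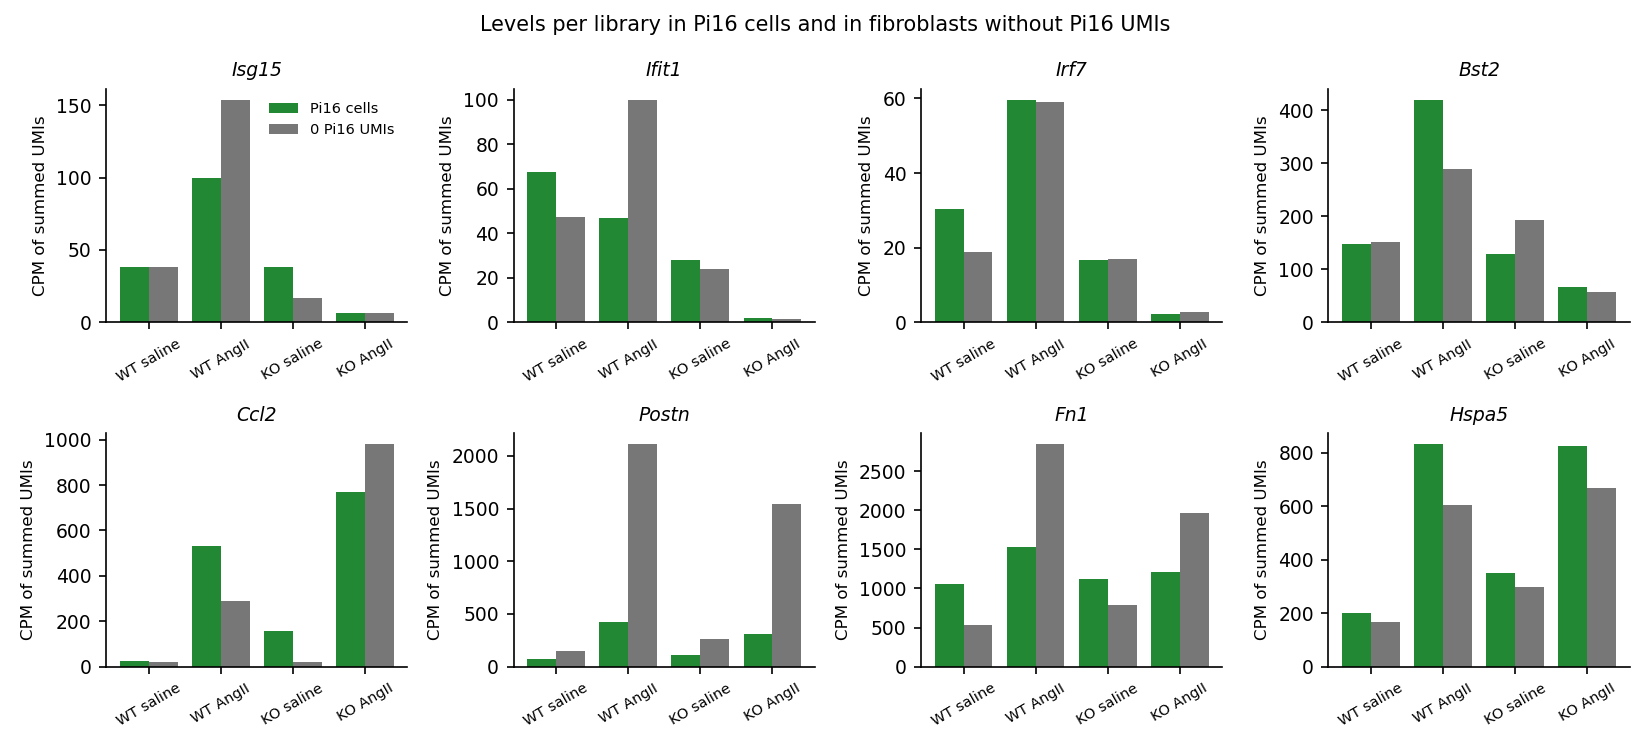
Bars give the level in CPM, on linear axes that start at 0, of 8 genes in Pi16 cells and in fibroblasts with 0 Pi16 UMIs of each of the 4 libraries. Isg15, Irf7 and Bst2 peak in WT AngII and are lowest in KO AngII, Postn is higher in the cells without Pi16 UMIs, and Hspa5 is lowest in WT saline.

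Among genes higher in KO AngII than in WT AngII, Thbs1 stood at 562 against 97.4 CPM (2.53, 2.36 to 2.71) and Tnc (tenascin-C), a matrix protein of injured tissue, at 105 against 15.9 (2.73, 2.31 to 3.18). Without the exclusion gates the ratios were 1.38 for Thbs1 and 1.92 for Tnc, and that of Thbs1 in fibroblasts with 0 Pi16 UMIs was 0.11. Lif, a cytokine of the interleukin-6 family, stood at 75.1 against 13.1. In collagen and fibrosis genes as a whole 4 of 20 were at least 2-fold higher and none lower (median 0.17). Several of the most different genes rested on few cells. Cxcl13 gave 57 against 5 UMIs, all 57 in 1 cell, and 53 of 54 Emcn UMIs were in 1 cell. Ankrd1 had 77.9% of its KO AngII UMIs in 5 cells (29.0 against 3.05 CPM). Ccl5 gave 121 UMIs in WT AngII and 0 in KO AngII, with 119 of the 121 in 1 cell.

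With saline, 233 of 6906 genes (3.37%) were at least 2-fold higher in KO than in WT Pi16 cells and 263 (3.81%) lower. After thinning, 36.6% of the genes apart were higher, against 47.0% before. The median over progenitor genes was 0.40, with 3 of 27 at least 2-fold higher and 1 lower, which was Procr, at 82.1 against 286 CPM. Smooth muscle markers were higher, 7 of 9 at least 2-fold (median 1.60), as already seen in their summed level. Actb, the cytoskeletal actin, stood at 6787 in KO saline against 1282 CPM in WT saline (2.40, 2.35 to 2.46), and at 2713 and 3941 in WT AngII and KO AngII. In fibroblasts with 0 Pi16 UMIs the Actb log2 ratio of KO over WT with saline was 2.43. Interferon-stimulated genes had a median of -0.77, with 6 of 16 at least 2-fold lower and 1 higher.

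The other named differences set WT saline apart from the remaining libraries. Tsc22d3 (GILZ), a gene induced by glucocorticoids, stood at 810, 72.0, 118 and 70.5 CPM. Galnt15, a glycosyltransferase, stood at 349, 16.2, 53.7 and 8.24. Nr1d1 (REV-ERB alpha), a transcription factor of the circadian clock, stood at 3.11, 38.5, 82.1 and 62.3 CPM. In each the WT saline level lay outside the range of the other 3 libraries. The differences between the saline libraries were not particular to Pi16 cells. In fibroblasts with 0 Pi16 UMIs the log2 ratios of KO over WT were -1.96 for Tsc22d3, -2.46 for Galnt15 and 2.76 for Nr1d1. In Myh11-gated cells Nr1d1 stood at 125 CPM in KO saline against 21.5 in WT saline, Tsc22d3 at 15.5 against 35.9 and Galnt15 at 15.4 against 64.9.

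Mrgprg, a G protein-coupled receptor gene, gave 303 UMIs in 55 of 651 Pi16 cells of WT saline, with 88 in 1 cell. It gave 11 UMIs in 7 cells of KO saline and 0 in both AngII libraries, at least 129-fold lower with AngII in WT. No UMI of it was found in the 155 and 92 saline comparison cells. Gnrhr, the receptor for gonadotropin-releasing hormone, gave 50 UMIs in 42 cells of WT saline and 0 in the Pi16 cells of the other 3 libraries, at least 21.2-fold lower with AngII in WT and at least 10.0-fold lower in KO saline. The Ccl2 level of KO saline, 155 against 25.3 CPM, had 65.3% of its UMIs in 5 cells, and that of Ptn, 33.0 against 1.95 CPM, had 88.2%.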

How the data were processed

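The 4 deposited tables held raw UMI counts for 17524 genes per cell, which the authors made with Cell Ranger on mm10, per the submitters' processing notes. Steps between reads and counts were otherwise not given in the sources used here. The rule was applied to these counts. Members and the 28 gene lists (353 of 363 genes measured) were chosen with earlier results of these data known. Counts were summed per library and class and fitted with edgeR 4.0.16 (R 4.3.3) using TMM factors, the library as a block and a filter on low counts. DESeq2 1.42.0 was an alternative. The 4 libraries, each a pool of 3 mice, were the replicates of a class, so p-values measure the spread between libraries. Between libraries, log2 ratios of CPM were computed with 95% counting intervals. Named genes were the 12 higher and 12 lower between the classes with the largest fold change among those called in both fits. They also had 1 direction in all 4 libraries of the main comparison and at least 100 UMIs. Per library comparison they were the 5 higher and 5 lower whose interval ended farthest from 0. The markers and up to 5 genes per list were added. No doublet caller was run. The edgeR fits were tested on simulated data. Alternatives changed the block, scaling, filters, gates, depth and libraries. Results for some genes are not reported here.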

Additional observations from a re-analysis of the deposited data

Results flagged for a closer look

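For the 20 list or named genes given here the difference between Pi16 cells and fibroblasts with 0 Pi16 UMIs was itself different with AngII and with saline, by edgeR's interaction test with and without the same exclusion gates on both sides. Values are log2 and give the class difference with AngII minus that with saline. It was negative for the matrix genes Aspn (-2.79), Col12a1 (-3.03), Mfap5 (-1.83) and Fn1 (-1.63). It was negative as well for Gfpt2 (-2.29), Ly6c1 (-1.70), Anxa3 (-1.81), Ly6a (-1.61) and Uchl1 (-1.34), which belong to the progenitor or surface antigen lists, and for the interferon-stimulated Ifit1 (-1.50). For Ifit1 the class ratio in the main comparison was 0.51 with saline and -1.10 with AngII in WT. In KO it was 0.20 and 0.17, the latter from 6 against 4 UMIs.

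The interaction was positive for Eng (2.13), the coagulation starter F3 (2.005), the BMP-like factor Gdf10 (1.81) and the retinol carrier Rbp4 (1.85). Hsd11b1, which activates glucocorticoids, had 2.27, and Pappa, a protease that frees insulin-like growth factors, had 2.57. The others were Tmem176a (1.23), Fabp4 (1.71), Igf1 (1.01) and Emilin1 (1.09).

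With 1 library left out, all 20 had the same direction in each of the 4 fits. Without WT saline 17 were called (Emilin1, Ifit1 and Uchl1 were not). Without WT AngII 18 were called (not Ifit1 and Uchl1), without KO saline 18 (not Pappa and Uchl1) and without KO AngII 19 (not Fabp4). In these fits the lone library of a treatment is assumed to vary like the others.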

How the results depend on the processing

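With no filter on low counts the class test called 605 genes and the interaction 542, in place of 195 and 299. With the same exclusion gates on both sides they called 400 and 78, and with no exclusion gates 322 and 113. With 1 library left out the class test called 84 to 277 genes and the interaction 243 to 489, the latter highest without WT AngII. The labels carry no replicate numbers, so the library served as the pairing of the classes. Without that replicate block edgeR called 0 genes, with 571 at an unadjusted p under 0.05, and every named class gene lost its call. DESeq2 called 202.

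The share of Pi16 cells, in the order of libraries used above, was 72.7%, 26.7%, 72.3% and 22.4% with at least 1 Pi16 UMI and 57.4%, 22.0%, 52.9% and 18.2% with at least 3. Thinning gave 37.6% in WT AngII and 33.5% in KO AngII. Over cells that passed the exclusion gates it was 75.6%, 79.3%, 70.5% and 77.4%, and without those gates 74.2%, 84.3%, 68.9% and 79.6%, so the order of saline above AngII was lost under both at full depth. With no exclusion gates and thinning it was 70.8%, 66.4%, 68.2% and 50.2%, with saline above AngII.

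With at least 100 UMIs, 490 and 487 genes were 2-fold apart with AngII in WT and KO, and 177 and 151 between genotypes with saline and AngII, in place of 1088, 1125, 496 and 423. With no exclusion gates, 1674, 1801 and, between genotypes with AngII, 894 were. Between genotypes with AngII 29.2% of these were then higher in KO, against 47.5%. Of 40 named ratios 17 moved beyond their counting interval there, and Emcn reversed to -0.80. Thinning moved 16 of 39. By over 1.5 times, 18 ratios differed without the gates and 19 with thinning, the latter mostly of genes with 0 or 1 UMI in 1 library. With no exclusion gates Ifit1 with AngII in KO was -1.91 in place of -3.92 and Ankrd1 between genotypes with AngII 1.48 in place of 3.25. The fits and counts with no exclusion gates and the interaction with libraries left out were chosen after seeing the data. Ratios between single libraries carry counting error only, and no model with treatment and genotype as terms was run on the Pi16 cells.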
